A study of Physcomitrium patens with 4 samples.

Results

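ABI3 (ABSCISIC ACID INSENSITIVE 3) is a B3-domain transcription factor that acts downstream of the hormone abscisic acid (ABA). In Arabidopsis seeds it turns on storage protein and late embryogenesis abundant (LEA) genes, whose products accumulate before the seed dries, and it is needed for desiccation tolerance and for the loss of chlorophyll. Mosses form no seeds, but in Physcomitrella patens ABA and the ABI3 factors are known for their part in the survival of drying by vegetative tissue. The signal passes from soluble receptors (PYR/PYL/RCAR) that bind ABA and block type 2C protein phosphatases, which frees SnRK2 kinases to act on bZIP factors that work together with ABI3.

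The ABI3 genes are those whose best Arabidopsis match carries the symbol ABI3 in the deposited annotation, and 9 of 18800 listed genes met this rule. All 9 match the same Arabidopsis locus, AT3G24650, and each carries the B3 DNA-binding domain (PF02362), so the label fits the annotation. A best match is a likeness of sequence and does not show that a moss gene has the role of the Arabidopsis one. Pp1s104_58V6 holds the most tags and is called the lead gene below. Both the family and the lead gene were selected on tag counts of these 4 libraries that were already known, in all steps between them, so their levels are given as a description with no test.

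Digital gene expression tag profiling was run on wild-type protonemata, the filaments of the moss gametophyte, that had been digested with Driselase into protoplasts and on the cells that grew from them. The 4 groups are fresh protoplasts (0 h) and their cultures at 24, 48 and 72 h, all in mannitol, with no hormone in the medium. Cultures stayed dark for the first 24 h and then had a daily cycle of light and dark, so light and time in culture cannot be told apart. Samples of a time point were pooled into 1 library with no replicate, so each interval below covers counting error only, and fewer cells that express a gene and fewer transcripts per cell cannot be told apart.

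The libraries held 1750184 to 2445814 tags in genes, and 3 tags, the limit that a count of 0 allows, equal 1.23 to 1.71 per 1000000 of them. Tags were found for 16710 and 16278 genes at 0 and 24 h and for 13920 and 14340 genes at 48 and 72 h. The 72 h library stands apart, since its 10 most abundant genes took 24.2% of the tags, against 4.39% to 7.90% in the others. Levels are tags per 1000000 tags of a library size scaled by TMM, a trimmed mean of the log ratios between libraries. A gene is said to have risen or fallen only where its scaled level changed 4-fold or more, with 100 tags or more in the higher library. Each tag marks the 3′ end of 1 transcript, so tag counts do not scale with transcript length, but tags shared by several genes had been removed and close copies can lose tags.

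The lead gene was high in fresh protoplasts and fell in both of the first steps of culture. Pp1s104_58V6 held 715, 140, 18 and 65 tags at 0, 24, 48 and 72 h. The counts correspond to levels of 269, 59.9, 10.03 and 38.3. The 95% Wilson intervals of the 4 libraries do not overlap: per 1000000 gene tags they ran from 296 to 342, from 67.8 to 94.4, from 5.80 to 14.5 and from 20.9 to 33.9. Fresh protoplasts were thus the highest and the 48 h cells the lowest of the 4. Ordered by tags, the gene stood at places 544, 2689, 8513 and 4300 among all genes of the 4 libraries.

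**Figure D1:**
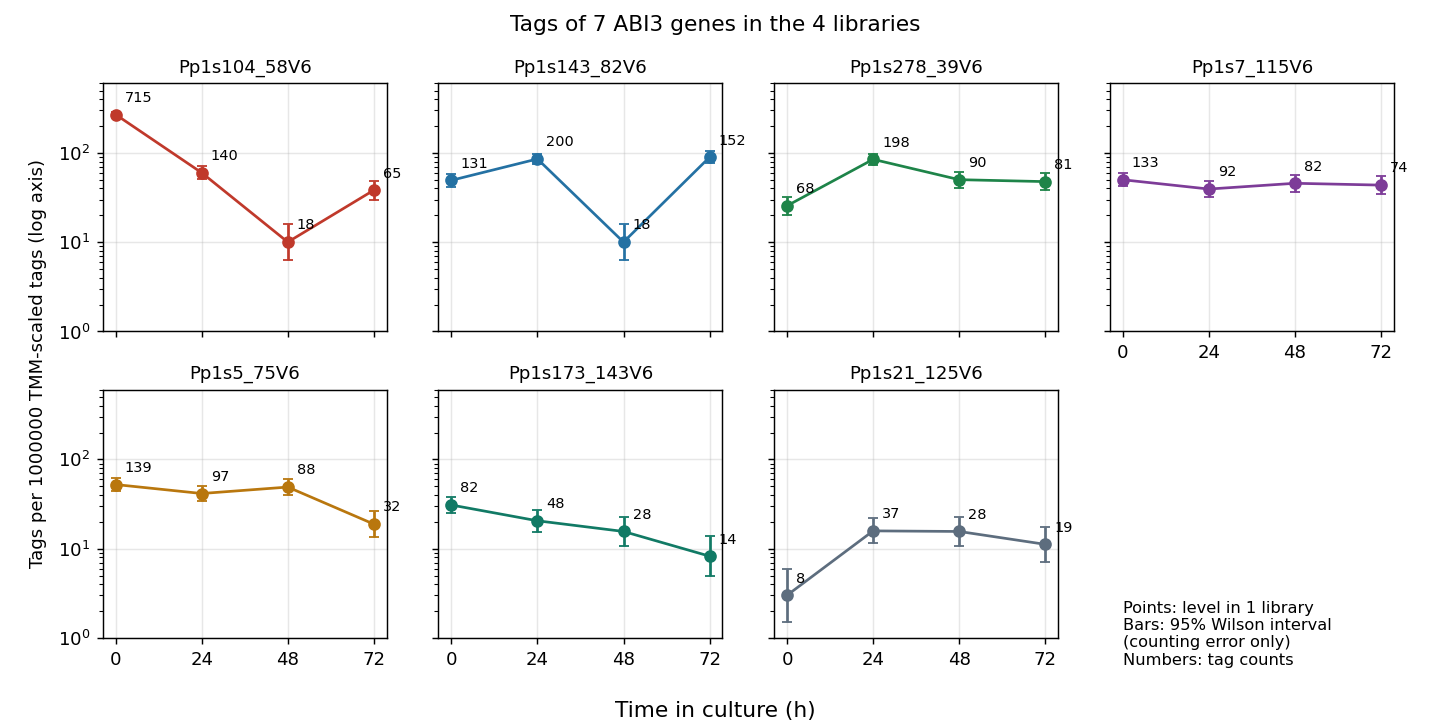
Level of 7 ABI3 genes against time in culture (h), as tags per 1000000 TMM-scaled tags on a log axis, 1 library per point, with 95% Wilson intervals as bars and tag counts beside the points. Pp1s104_58V6 goes from 715 tags at 0 h to 18 at 48 h, and Pp1s7_115V6 stays between 74 and 133 tags.

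From 0 to 24 h the lead gene fell 4.49-fold (95% interval 3.74 to 5.42). With total gene tags as the scale the ratio was 3.98-fold, just under the threshold. From 24 to 48 h it fell 5.98-fold (3.65 to 10.4), so that the level at 48 h was 26.8-fold lower (16.9 to 45.5) than in fresh protoplasts. At 72 h the level was 3.82-fold higher than at 48 h (2.24 to 6.84), with neither library at 100 tags, and it was still 7.03-fold lower (5.45 to 9.21) than at 0 h, or 11.97-fold lower with total gene tags, a span over which 1 of the 9 ABI3 genes and 21.2% of all genes with 100 tags fell. The 72 h level was 1.57-fold lower than the 24 h level (1.16 to 2.13), and this value moved to 3.01-fold with total gene tags.

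The falls of the lead gene were not at the far end of the transcriptome. Of 5495 genes with at least 100 tags in the higher library, 12.05% had a lower ratio than Pp1s104_58V6 from 0 to 24 h. For the step from 24 to 48 h the share was 13.6% of 5091 genes. Over the whole span from 0 to 48 h it was 5.52% of 5599 genes, and from 0 to 72 h it was 12.6% of 5430.

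The lead gene was the only ABI3 gene of the 9 to fall from 0 to 24 h, and none rose. Among all genes with 100 tags in the higher library, 13.6% fell in this step and 6.70% rose. From 24 to 48 h, 2 of the 9 fell, the lead gene and Pp1s143_82V6, where 19.3% of all such genes fell. From 48 to 72 h, 1 of the 9 rose, Pp1s143_82V6, where 21.4% of such genes rose. Only 5, 3 and 1 of the 9 had the 100 tags needed for a call in these steps, and the shares are printed for scale, since the genes were chosen with these values known.

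Pp1s143_82V6 had its low point at the same time as the lead gene but did not share its start. It held 131, 200, 18 and 152 tags at the 4 times. The 48 h cells were far below the other 3, and fresh protoplasts were below the 24 and 72 h cells, whose intervals overlapped. Its level was 1.74-fold higher at 24 h than at 0 h (1.39 to 2.18), fell 8.54-fold by 48 h (5.26 to 14.7) and rose 8.93-fold by 72 h (5.46 to 15.5). At 72 h it was 1.05-fold the 24 h level (0.841 to 1.298) and 1.82-fold the 0 h level (1.43 to 2.31). With total gene tags these ratios were 0.544 and 1.07. From 0 to 48 h it fell 4.92-fold (2.99 to 8.55), where 24.6% of all genes with 100 tags fell.

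Pp1s278_39V6 was lowest in fresh protoplasts, where the lead gene was highest. It held 68, 198, 90 and 81 tags at the 4 times. Its level was 3.31-fold higher at 24 h than at 0 h (2.502 to 4.43), a ratio above that of 91.7% of genes with 100 tags, although under the 4-fold threshold. It was then 1.69-fold lower at 48 h (1.31 to 2.19) and near the same value at 72 h, with a ratio of 0.951 (0.696 to 1.299). Pp1s21_125V6 also had its lowest count at 0 h, with 8, 37, 28 and 19 tags in the 4 libraries. Its 24 h level was 5.26-fold the 0 h level (2.41 to 13.1), on too few tags for a call.

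The remaining genes changed slowly or little. Pp1s7_115V6 held 133, 92, 82 and 74 tags and was the steadiest of the 7 countable genes, with its highest level 1.27-fold its lowest. With total gene tags its 72 h level was 1.96-fold lower than its 0 h level. Pp1s5_75V6 held 139, 97, 88 and 32 tags. Its first 3 levels differed by at most 1.26-fold, and the 72 h level was 2.60-fold lower than the 48 h one (1.72 to 4.03). From 0 to 72 h the difference for Pp1s5_75V6 was 2.78-fold (1.88 to 4.21) and passed 4-fold, at 4.73, with total gene tags, and at 4.42 with clean tags.

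Pp1s173_143V6 had fewer tags in each later library, with 82, 48, 28 and 14. Its level at 72 h was 3.74-fold lower than at 0 h (2.11 to 7.15) and 6.37-fold lower with total gene tags, again under 100 tags. The last 2 genes could hardly be counted at this depth: Pp1s3_118V6 had 3 tags at 24 h and 0 in the other libraries, and Pp1s314_2V6 had 2, 0, 2 and 3. No fold is given for them, since both lie at or under the limit of 3 tags.

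**Figure D2:**
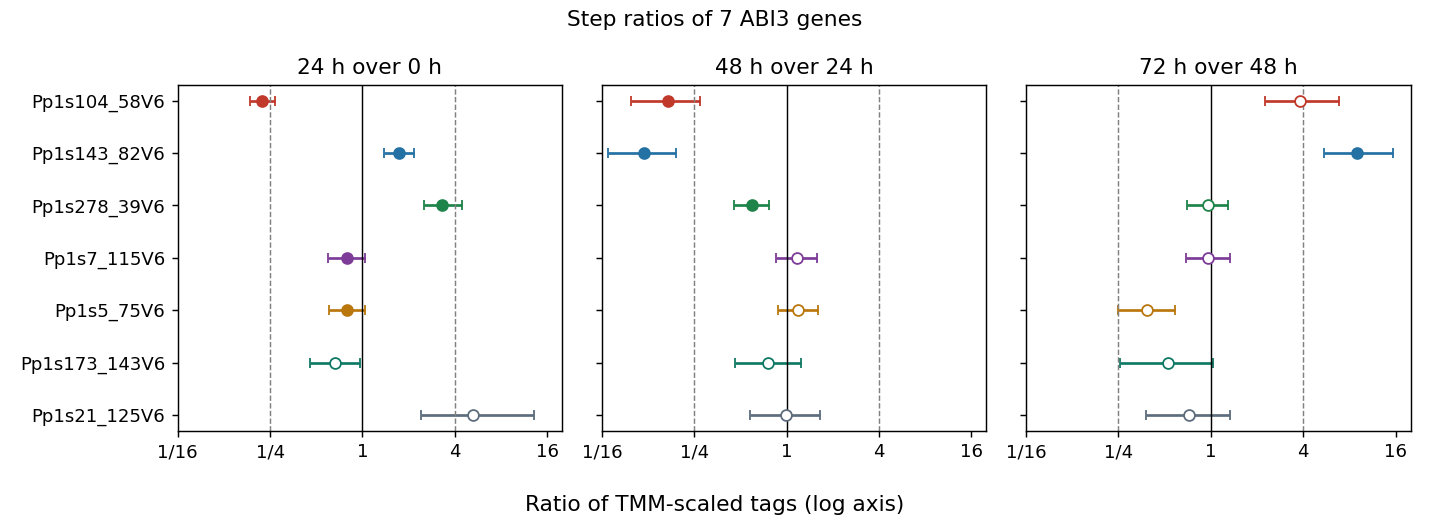
Ratio of TMM-scaled tags in each step of culture for 7 ABI3 genes, on a log axis, with exact 95% intervals as bars, filled points where the higher library held at least 100 tags and dashed lines at 4-fold. Pp1s104_58V6 lies at 4.49-fold lower from 0 to 24 h, where Pp1s278_39V6 lies at 3.31-fold higher, and in the next step Pp1s143_82V6 lies with the lead gene.

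The changes of 2 genes can be set against each other within the same libraries, which makes the ratio free of the scaling. From 0 to 24 h the change of Pp1s278_39V6 was 14.9-fold that of the lead gene (exact interval 10.6 to 21.0), and the change of Pp1s143_82V6 was 7.80-fold it (5.80 to 10.5). From 24 to 48 h the change of Pp1s143_82V6 was 0.70-fold that of the lead gene (0.331 to 1.48), so their falls in this step were not told apart by counting error. From 48 to 72 h it was 2.34-fold it (1.07 to 5.09). Over 0 to 48 h the changes of Pp1s5_75V6 and Pp1s7_115V6 were 25.1-fold (14.4 to 45.6) and 24.5-fold (13.95 to 44.6) that of the lead gene. These ratios carry no test, since the genes were chosen with the differences known.

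The order of the 9 genes changed from library to library. At 0 h the lead gene was first and its interval overlapped with none, followed by Pp1s5_75V6, Pp1s7_115V6 and Pp1s143_82V6, whose intervals overlapped. At 24 h Pp1s143_82V6 and Pp1s278_39V6 were first and overlapped, with the lead gene next below them. At 48 h Pp1s278_39V6, Pp1s5_75V6 and Pp1s7_115V6 were first and overlapped, and the lead gene and Pp1s143_82V6 had 18 tags each. At 72 h Pp1s143_82V6 was alone in first place, and Pp1s278_39V6, Pp1s7_115V6 and the lead gene overlapped behind it.

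The tags of the 9 genes together moved less than those of the lead gene. They summed to 1278, 815, 354 and 440 tags at the 4 times. The lead gene held 55.9% of them at 0 h (Wilson interval 53.2 to 58.6), 17.2% at 24 h (14.7 to 19.9), 5.08% at 48 h (3.24 to 7.89) and 14.8% at 72 h (11.8 to 18.4). It was thus more than all the others summed in fresh protoplasts and the smaller part of the family's tags afterwards.

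The other 8 genes summed to 563, 675, 336 and 375 tags, or levels of 212, 289, 187 and 221. Their sum was 1.36-fold higher at 24 h than at 0 h (1.22 to 1.53), while the lead gene fell. It was then 1.54-fold lower at 48 h (1.35 to 1.76) and 1.18-fold higher at 72 h (1.02 to 1.37). The last ratio depended on the scaling, with 0.896 (0.772 to 1.04) for total gene tags and 0.988 (0.851 to 1.15) for clean tags. Between 0 and 48 h the ratio of this sum was 0.884 (0.770 to 1.01), against the 26.8-fold fall of the lead gene.

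**Figure D3:**
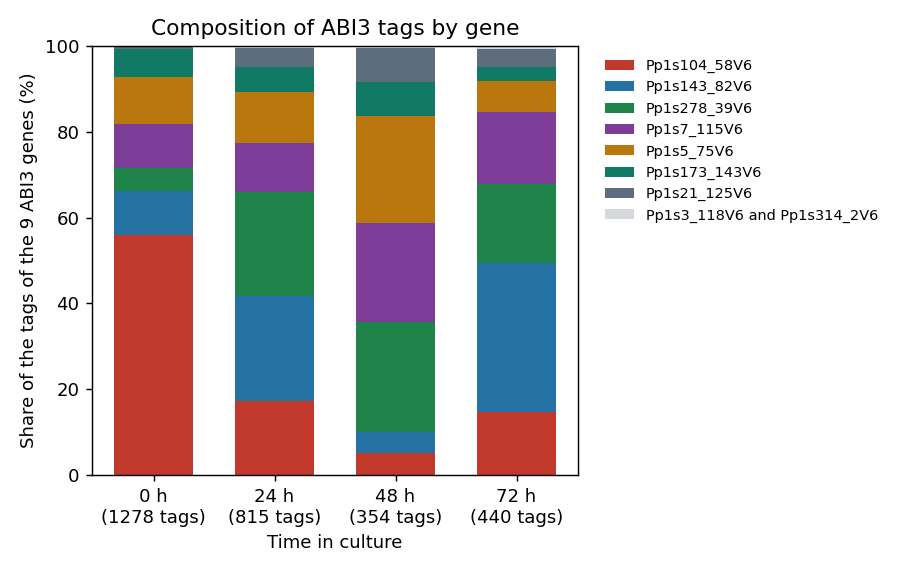
Share (%) of the tags of the 9 ABI3 genes that each gene held in the 4 libraries, with the family's tag total under each bar. The share of Pp1s104_58V6 is 55.9% at 0 h and 5.08% at 48 h.

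Among the other genes with a B3 domain, none had as many tags in any library as the lead gene at 0 h. The files list 42 genes with the domain, of which 33 are not ABI3 genes, and the largest count of these was 254. The 33 summed to 993, 888, 603 and 549 tags, levels of 374, 380, 336 and 323. Their sum varied less than the ABI3 sum, which went from a level of 481 at 0 h to 197 at 48 h. Only 4 of the 33 had 100 tags in any library. Of these, 1 rose or fell in a step, where 21.4% of all genes with 100 tags rose from 48 to 72 h: ARF2 (Pp1s280_7V6), an auxin response factor, with 59, 126, 52 and 202 tags, which rose 4.11-fold from 48 to 72 h (3.01 to 5.68), but only 3.44-fold with clean tags. Over the span from 0 to 48 h, 3 of 7 B3 genes with 100 tags fell, where 24.6% of all such genes fell. They were the lead gene, Pp1s143_82V6 and a gene that is not an ABI3 gene, ARF6 (Pp1s119_32V6). ARF6 held 155, 67, 2 and 0 tags, with levels of 58.3 at 0 h and 1.11 at 48 h, and was chosen after its values were seen. The closest relatives of ABI3 in Arabidopsis are FUS3 and LEC2, activators of seed genes, and no listed gene had either as its best match. Every listed gene with a B3 domain had tags, so moss genes without tags may be missing from the list. The repressors HSI2 and HSL1, which shut down seed genes in Arabidopsis seedlings, had 1 and 3 matches, of which HSI2 (Pp1s31_242V6) held 53, 45, 80 and 2 tags, a gene chosen after its values were seen.

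By its median, the list of ABA receptors went down in the first step of culture and up in the last. Over the 5 of 7 receptor genes with 10 tags in both libraries together, the median log2 ratio was −1.36 from 0 to 24 h (−0.08 for all genes), −0.35 from 24 to 48 h (−0.29) and 1.45 from 48 to 72 h (0.01). Of the 4, 4 and 3 with 100 tags in these steps, none passed 4-fold in the first, where 6.70% of all genes rose and 13.6% fell, 1 fell in the next (19.3%) and 2 rose in the last (21.4%). PYL11 (Pp1s105_38V6), an ABA receptor, held 645, 157, 3 and 284 tags at the 4 times. It was lowest at 48 h, the library in which the lead gene and Pp1s143_82V6 were lowest too. PYL11 fell 40.2-fold from 24 to 48 h (13.5 to 197) and rose 100-fold from 48 to 72 h (33.9 to 488). RCAR3 (Pp1s231_41V6), another receptor, held 413, 141, 96 and 418 tags. It rose 4.60-fold from 48 to 72 h (3.68 to 5.81), a ratio of 3.86 with clean tags. Of the 5 receptors in the median, 3 were higher at 72 h than at 48 h and the others were lower. The lower ones were RCAR3 (Pp1s52_236V6), with 183, 189, 94 and 26 tags, and PYL4 (Pp1s89_26V6), with 51, 14, 12 and 2. They were chosen after their values were seen.

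Further down the pathway the values were mixed. Both phosphatase genes match HAB2, which holds the SnRK2 kinases off, and neither passed 4-fold in a step. Pp1s311_75V6 had 141, 228, 165 and 50 tags and Pp1s80_9V6 had 192, 124, 31 and 24. With total gene tags both passed it, Pp1s80_9V6 from 24 to 48 h at 4.49-fold lower and Pp1s311_75V6 from 48 to 72 h at 4.11-fold lower. Of 4 genes that match the kinase OST1, 3 had 100 tags and 1 fell from 24 to 48 h, where 19.3% of all such genes fell: Pp1s116_98V6 held 470, 656, 99 and 185 tags and fell 5.09-fold from 24 to 48 h (4.12 to 6.35). The 2 matches to the bZIP partners were at the limit of detection in all 4 libraries, with 4, 0, 0 and 0 tags for ABF4 (Pp1s49_161V6) and 0, 0, 2 and 0 for ABF1 (Pp1s9_249V6).

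AIP2, a ubiquitin ligase that marks the ABI3 protein for breakdown in Arabidopsis, had its highest count in the same library as the lead gene. Its match Pp1s295_6V6 held 1721, 355, 164 and 411 tags. Fresh protoplasts were the highest and the 48 h cells the lowest, as for the lead gene. The fall from 0 to 24 h was 4.26-fold (3.80 to 4.79), and 3.77-fold with total gene tags. It was the only 1 of the 8 genes listed as regulators of ABI3 or ABI5 with 100 tags in any step. A gene that matches AIP3, another protein found to bind ABI3, held 68, 40, 45 and 5 tags (Pp1s341_64V6), and was chosen after its values were seen.

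For the making of ABA, 8 genes were matched, of which 4, 2 and 1 had 100 tags in the 3 steps. From 0 to 24 h, 1 fell, and from 48 to 72 h another, where 13.6% and 19.9% of all genes with 100 tags fell. NCED9 (Pp1s412_7V6), of the family that cleaves carotenoids in the step that limits ABA synthesis, held 141, 25, 50 and 33 tags. It was highest in fresh protoplasts and fell 4.96-fold by 24 h (3.22 to 7.92). ABA1 (Pp1s91_16V6), zeaxanthin epoxidase, held 59, 100, 234 and 29 tags and was highest at 48 h, where the lead gene was lowest. It fell 7.63-fold from 48 to 72 h (5.18 to 11.6). The other matches to ABA1 were not highest at 48 h: Pp1s321_9V6 held 276, 258, 91 and 78 tags and Pp1s25_29V6 held 34, 2, 10 and 28. A match to ABA3, Pp1s23_133V6, held 207, 68, 0 and 20 tags and was lowest at 48 h, as the lead gene was. These last genes were chosen after their values were seen. No listed gene matched the hydroxylases that break ABA down, nor LEC1, and genes without tags may be missing from the list.

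The moss genes that match seed targets of ABI3 were mostly higher at 24 h than at 0 h, while the lead gene fell. From 24 to 48 h, where the lead gene fell again, they were lower by their median too. Of the 11 genes listed, 8 had 10 tags in both libraries together and 7 of the 8 were higher at 24 h. Of the 7, Pp1s21_351V6, Pp1s243_37V6, Pp1s4_10V6 and Pp1s68_5V6 had 0 tags at 0 h. These passed the minimum on their 24 h tags alone, so they could only be counted as higher. The median log2 ratio of the 8 was 4.99, or 2.35 with counts of 0 taken as 3 tags, against −0.08 for all genes. Only 3 of the 11 had 100 tags: 2 rose and 1 fell, where 6.70% of all such genes rose and 13.6% fell. The risers both match PER1, a peroxiredoxin of dormant seeds. Pp1s32_349V6 held 33, 121, 75 and 332 tags and rose 4.17-fold (2.82 to 6.33), and Pp1s12_126V6 held 17, 3643, 551 and 2673. From 24 to 48 h Pp1s12_126V6 fell 5.08-fold (4.64 to 5.57), where 19.3% of all genes with 100 tags fell. From 48 to 72 h it rose 5.13-fold and Pp1s32_349V6 4.68-fold, where 21.4% of such genes rose. With total gene tags these rises were 3.90-fold and 3.55-fold. A further match to PER1, Pp1s40_134V6, did not dip at 48 h. It held 8, 33, 75 and 147 tags, with a higher level in each later library, and was chosen after its values were seen. The list's median log2 ratio was −1.32 from 24 to 48 h (−0.29 for all genes) and 1.05 from 48 to 72 h (0.01).

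The gene that fell from 0 to 24 h was GEA6 (Pp1s12_68V6), which matches the Arabidopsis group 1 LEA gene EM6, a standard target of ABI3 in seeds. It held 119 tags at 0 h, 2 at 24 h and 0 at 48 and 72 h. Its tags were thus found almost only in fresh protoplasts, where the lead gene was highest. The other matches to GEA6 had tags at 24 h only, 13 for Pp1s4_10V6 and 4 for Pp1s172_27V6, and were chosen after their values were seen. The fall to 24 h was 52.3-fold (14.2 to 437). OLEO1 (Pp1s21_351V6), an oil body protein, went the other way from 0 to 24 h, with 0, 93, 11 and 21 tags at the 4 times. Its 24 h level was at least 35.3-fold higher than the limit of 3 tags at 0 h. Among the cultures its level was highest at 24 h and lowest at 48 h, as that of the lead gene was. Another match to OLEO1, Pp1s84_138V6, had 18 tags at 72 h and 0 before. Each had too few tags for a call and was chosen after its values were seen.

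The 51 genes of LEA and dehydrin domains include many that rose in the first step. Proteins that build up in drying tissue carry such domains, but the list is wider than these proteins. It also holds genes annotated as LEA hydroxyproline-rich glycoproteins or as NDR1/HIN1-like. NHL3 (Pp1s128_100V6) and NHL25 (Pp1s378_32V6) are of the latter kind and are among the later falls counted below. The falls from 24 to 48 h also include genes of other kinds. Pp1s379_42V6, annotated as a LEA protein, held 37, 1128, 8 and 170 tags and fell 108-fold (54.8 to 252). COR47 (Pp1s421_9V6) held 2, 773, 34 and 60 tags and fell 17.5-fold (12.4 to 25.4). Pp1s168_73V6, a seed maturation protein, held 27, 257, 14 and 43 tags and fell 14.1-fold (8.25 to 26.2). The part of each gene in drying was not tested. From 0 to 24 h, 16 rose and 1 fell of 31 with 100 tags, where 6.70% of all such genes rose and 13.6% fell. The one that fell was GEA6, which is also on the list of seed targets. Of the risers, only Pp1s293_81V6, with 313 tags at 0 h, and ERD10 (Pp1s442_22V6), with 346, held 100 tags in fresh protoplasts. Both were chosen after their values were seen. The other risers passed the tag minimum on their 24 h tags alone, so they could be counted as risen but not as fallen. The same minimum applied to all genes. The median log2 ratio of the list was 1.19 in this step, −0.69 in the next (−0.29 for all genes) and 0.00 from 48 to 72 h (0.01 for all genes). From 24 to 48 h, 1 rose and 6 fell of 28, where 21.1% and 19.3% of all genes rose and fell, and in the last step 3 rose and 4 fell of 24, where 21.4% and 19.9% of all genes rose and fell. With total gene tags the last counts were 2 and 8. Pp1s118_232V6 held 8, 640, 222 and 1161 tags and rose 91.0-fold from 0 to 24 h (45.9 to 212), and Pp1s156_7V6, with 18, 1555, 753 and 519 tags, rose 98.2-fold (62.0 to 166).

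Chlorophyll loss is the other seed process that ABI3 is known for, and 9 genes match its enzymes and the SGR proteins. From 24 to 48 h, 3 of 6 with 100 tags fell and none rose, where 19.3% of all genes fell. Of the 3, a pair matches ACD1, pheophorbide a oxygenase, which opens the chlorophyll ring: Pp1s111_8V6 held 241, 203, 13 and 85 tags and fell 11.996-fold (6.86 to 22.9), and Pp1s312_10V6 held 233, 137, 26 and 50. The other, Pp1s68_185V6, matches an SGR gene (AT4G11910), held 323, 202, 23 and 59 tags and fell 6.75-fold (4.37 to 10.9). All 3 were lowest at 48 h, as the lead gene was. Pp1s312_10V6 and Pp1s68_185V6 were highest at 0 h, and Pp1s111_8V6 had levels of 90.7 and 86.9 at 0 and 24 h, not told apart by counting error. Another match to the same SGR gene, Pp1s157_51V6, took a different course with 138, 603, 152 and 30 tags. It rose 4.97-fold from 0 to 24 h (4.12 to 6.02) and was lowest at 72 h. The low point at 48 h was thus not shared by the whole list. PPH (Pp1s50_49V6), with 45, 72, 7 and 39 tags, had it too. By level, the NYC1 matches Pp1s100_87V6 and Pp1s199_2V6 were lowest at 0 h and NOL (Pp1s373_37V6) at 24 h. NYE1 (Pp1s9_169V6), with 28, 8, 33 and 20 tags, was lowest at 24 h and highest at 48 h. These last genes were chosen after their values were seen.

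**Figure D4:**
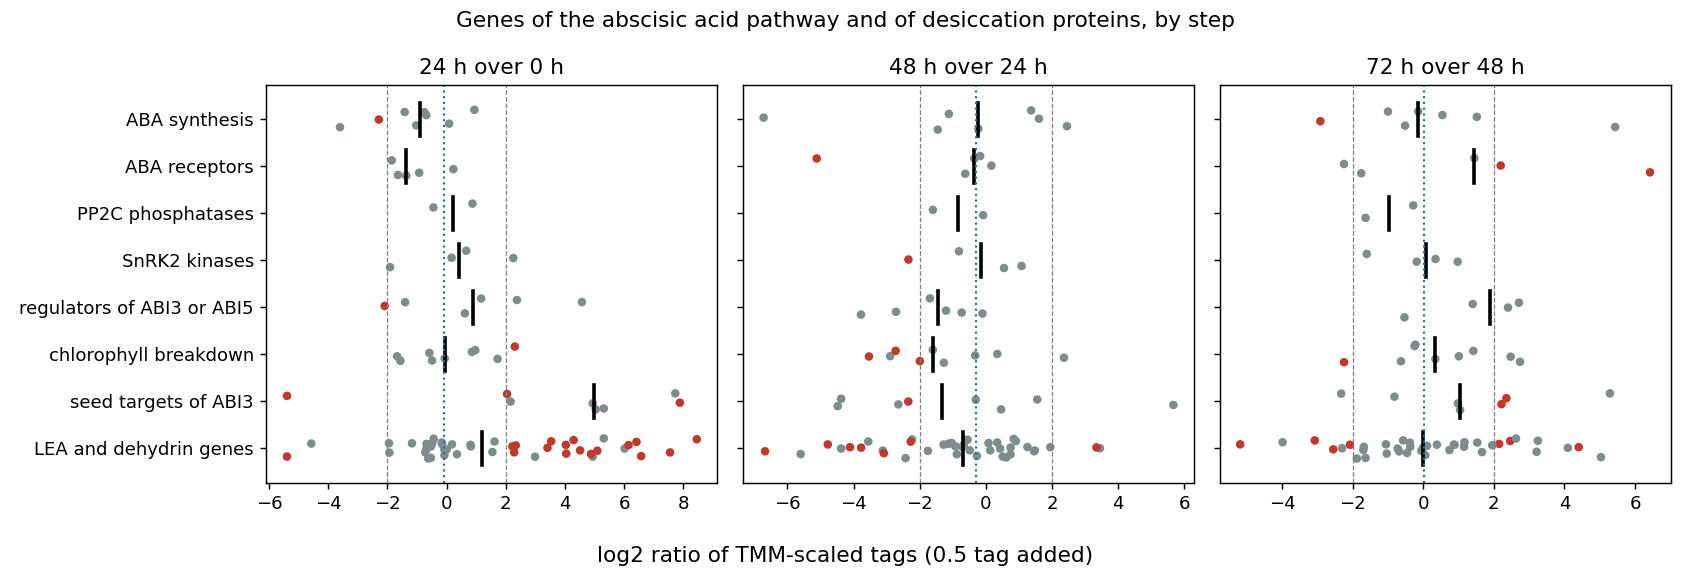
Log2 ratio of TMM-scaled tags (0.5 tag added) in each step for the genes of 8 lists, 1 point per gene with at least 10 tags in both libraries together, red where the gene passed 4-fold with 100 tags, black bars at list medians, dotted lines at the median of all genes and dashed lines at 4-fold. The median of the seed targets is 4.99 from 0 to 24 h and −1.32 from 24 to 48 h.

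The course of the lead gene was shared by many genes outside the pathway. Likeness was taken as the root mean square difference of centred log2 levels over the 4 libraries, among 6699 genes with at least 100 tags in a library. The nearest was an ELC-Like gene (Pp1s242_76V6), a match to a ubiquitin-binding sorting protein, at 0.03 with 462, 89, 11 and 43 tags. The next were the cytokinin response factor CRF2 (Pp1s21_247V6) at 0.15, with 514, 123, 12 and 53 tags, a P-loop nucleotide hydrolase (Pp1s48_51V6) at 0.16, the PAS/LOV protein PLPB (Pp1s318_13V6), which carries a light-sensing LOV domain, at 0.16, and a YDG/SRA protein (Pp1s4_33V6) at 0.17.

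The list of 10 ended with a T-complex protein 11 gene (Pp1s109_63V6) at 0.17, the transporter ABCA1 (Pp1s115_120V6) at 0.21, the ferredoxin FED A (Pp1s65_120V6) at 0.22, a hydroxyproline-rich glycoprotein (Pp1s74_70V6) at 0.24 and the carboxypeptidase SCPL51 (Pp1s258_81V6) at 0.24. The median distance over all genes was 1.92, and 61 genes lay within 0.5. In all, 940 genes, or 14.03% of those compared, were highest at 0 h and lowest at 48 h as the lead gene was. The other ABI3 genes were much farther off: Pp1s143_82V6 stood at place 1537 with a distance of 1.38, Pp1s7_115V6 at 2340, Pp1s5_75V6 at 2459 and Pp1s278_39V6 at 3876. With 4 libraries, likeness describes these libraries only.

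**Figure D5:**
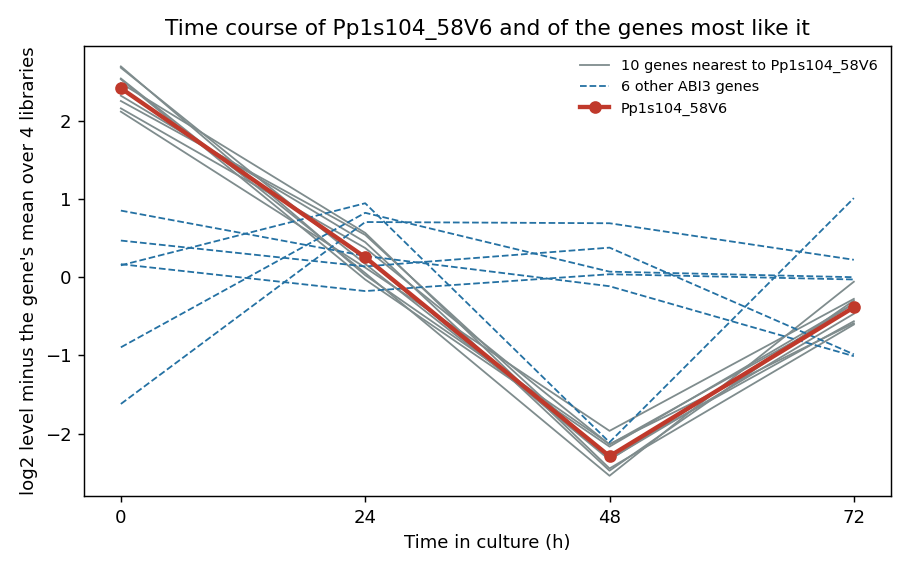
Log2 level of each gene minus its mean over the 4 libraries, against time in culture (h), for Pp1s104_58V6 (red), the 10 genes nearest to it (grey) and 6 other ABI3 genes (blue, dashed). The grey lines follow the lead gene within 0.03 to 0.24 log2 (root mean square), and the 4 other ABI3 genes with 100 tags in a library lie 1.38 or more from it.

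Markers of the tissue moved across the same libraries. The summed level of the 35 listed genes of photosynthetic tissue (small subunits of Rubisco and antenna proteins) was 6478, 1531, 39415 and 5566 at the 4 times. It was highest in the 48 h cells, the library in which the lead gene and Pp1s143_82V6 were lowest. The 6 RSL genes of rhizoids and caulonema had summed levels of 344, 297, 124 and 201. The single bud AP2 gene had 2 tags at 72 h and 0 before, and the single sporophyte KNOX gene 30 tags at 72 h and 0 before. The part of these shifts in the ABI3 values was not tested.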

How the data were processed

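RNA of each time point was made into 1 NlaIII tag library and sequenced by the authors. The authors removed adaptor-only tags, tags with ambiguous bases, tags of the wrong length and tags seen once, aligned the rest to the gene models with Bowtie, allowing a single mismatch, and dropped tags of more than 1 gene. The deposited tag counts of 18800 genes were used as they stand. A second deposited column, a signal that the authors head TPM, holds tags per 100000 clean tags. It served only to recover the clean tag totals (2743030 to 3373054), of which 63.8% to 72.5% lay in genes.

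Library sizes were scaled by TMM (edgeR 4.0.16 in R 4.3.3), with factors of 1.18, 1.33, 0.914 and 0.694. Ratios carry exact conditional (Clopper-Pearson) 95% intervals and levels carry Wilson intervals. PCR copies were not marked by molecular identifiers, so both cover counting error only. With 1 library per time point no p-value was computed. Steps that follow each other share a library. The threshold of 4-fold is that of the study's methods. A count of 0 was taken as 3 tags for a call, and 0.5 tag was added before log2.

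The ABI3 genes and all lists were chosen with earlier results of these data known. Lists were matched by Arabidopsis locus, Pfam domain or description, and 15206 genes have an Arabidopsis match. Genes named beside the ABI3 genes are up to 4 past the threshold per list and step, or the 2 with the most tags where a list had none, and the 10 nearest by likeness. Others are marked as chosen after their values were seen. The ratio and interval code was tested on simulated data. Alternatives were other scalings (total gene tags, clean tags, DESeq2 1.42.0 size factors, TMM without the 8 genes above 1% of a library) and other tag minimums. Further tools were matplotlib 3.10.9, pandas 2.3.3, scipy 1.17.1 and numpy 2.4.6 under Python 3.11.15. The gene IDs had 0 matches in the reference table at hand, so positions and sequences are not given here.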

Additional observations from a re-analysis of the deposited data

How the results depend on the processing

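The direction of the lead gene in each of the 6 comparisons was kept under all 4 other scalings, and under TMM without the 72 h library, which was chosen after seeing the data, in the 3 comparisons it allows. Its level at 72 h relative to 0 h was 11.97-fold lower (ratio 0.0835) with total gene tags and 11.2-fold lower (0.0893) with clean tags, and relative to 24 h it was 3.01-fold lower (0.332) and 2.65-fold lower (0.378). By construction, scaling by total gene tags shifts every gene by 0.18, −0.55 and −0.40 log2 in the 3 steps, and scaling by clean tags by 0.09, −0.50 and −0.26. The split of higher and lower genes from 24 to 48 h was 1074 to 985 with TMM, 750 to 1323 with total gene tags and 769 to 1294 with clean tags. From 48 to 72 h it was 969 to 901 with TMM and 783 to 1118 with total gene tags. From 0 to 48 h it was 940 to 1379, 724 to 1659 and 703 to 1695, from 0 to 72 h 876 to 1153, 488 to 1817 and 530 to 1727, and from 24 to 72 h 1005 to 805, 491 to 1444 and 565 to 1311, in the same order of scalings.

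A lower tag minimum tests more genes and so counts more past 4-fold. For the steps 0 to 24, 24 to 48 and 48 to 72 h and the spans 0 to 48, 0 to 72 and 24 to 72 h, the counts were 1113, 2059, 1870, 2319, 2029 and 1810 with 100 tags in the higher library. They were 2128, 4039, 3308, 4209, 3655 and 3521 with 30 tags, and 3160, 5418, 4460, 5412, 4710 and 4713 with 10 tags in both libraries together. Ranking likeness by Pearson correlation kept 3 of the 10 genes, and total gene tags kept all 10. PER1 (Pp1s12_126V6) rose 5.13-fold from 48 to 72 h with TMM and was at 3.90-fold with total gene tags, and PER1 (Pp1s32_349V6) was at 4.68-fold with TMM and 3.92-fold with clean tags. Of the list counts, 350 stayed within 1.5 times and 14 did not. No paired analysis was possible because each time point has 1 library, and for the same reason no replicate could be left out. At these depths a gene of 18 tags has an interval that spans 5.80 to 14.5 per 1000000 gene tags, and changes of genes under 100 tags were not called.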
